A study of Mus musculus with 10 samples.

Results

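The cone phototransduction genes are the 10 genes Opn1sw, Opn1mw, Gnat2, Gnb3, Gngt2, Pde6c, Pde6h, Cnga3, Cngb3 and Arr3, taken by name from the 26360 genes listed for this tissue, and all 10 were found. They were measured by RNA sequencing of total RNA in 10 libraries from the posterior eye wall of 5 wild-type C57BL/6J mice at postnatal day 34. Each animal gave a right-eye and a left-eye library, so there were 5 right eyes and 5 left eyes, and the animals carry the numbers 61, 64, 65, 66 and 68. A lens of -20 D was fitted over 1 eye at postnatal day 24 and worn for 10 days, with the other eye of the same animal untreated. All animals share strain, genotype and age. A number shared by 2 library titles was taken as the animal. Left and right are named in the labels, whereas the treated side is not, so the sign of a right minus left difference has no treatment meaning. The tissue label names the retinal pigment epithelium (RPE), the vascular choroid and the fibrous sclera, while the extraction protocol speaks of retinae.

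Cones are the photoreceptors of daylight and colour vision, and they lie in the retina, a layer that the tissue label does not include. In a cone, light activates an opsin, the opsin activates the heterotrimeric G protein transducin, transducin relieves the inhibition of a phosphodiesterase, and the fall in cyclic GMP closes a cyclic nucleotide-gated channel in the outer segment membrane. Arrestin then binds the phosphorylated opsin and ends its signal. Rods use a parallel set of genes for most of these steps. The mouse has a short-wave and a middle-wave cone opsin, many mouse cones hold both, and the short-wave opsin is known to dominate in the ventral retina and the middle-wave opsin in the dorsal retina.

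Values are in CPM, read counts scaled to the library total. The spacing of low values implied library totals of 66.9 M to 94.3 M reads, with a median of 79.3 M reads, and the listed genes held 42.7% to 47.1% of the CPM total. All 100 values of the members were whole numbers of implied reads within a tolerance of 0.05 reads. Markers of the labelled tissue were abundant, with summed levels of 4984 to 6581 CPM in right eyes and 4766 to 5414 CPM in left eyes for 10 RPE genes and of 6335 to 8823 CPM and 6049 to 8562 CPM for 6 genes of the sclera. Transcripts of the neural retina were present as well. The 11 rod markers summed to 130.5 to 1844 CPM in right eyes and 208.6 to 875 CPM in left eyes, and none of them was at 0 in any library. Markers of other retinal neurons were also measured. The 4 horizontal cell genes summed to 0.0958 to 4.14 CPM in right eyes and 0.266 to 1.64 CPM in left eyes, with Lhx1 and Onecut1 at 0 in at least 1 library. The 9 bipolar cell genes summed to 196.8 to 318 CPM in right eyes and 270.1 to 328 CPM in left eyes, most of it Trpm1, which melanocytes also express. The 14 amacrine and ganglion cell genes summed to 92.6 to 128 CPM in right eyes and 95.2 to 113 CPM in left eyes. Slc32a1, Pou4f1 and Pou4f2 were at 0 in at least 1 library. Most of this sum was Slc6a9, Rbpms and Tfap2b, with means of 53.0, 22.5 and 13.9 CPM. Their highest library exceeded the lowest 1.38-fold, 1.38-fold and 2.22-fold. Of the scarcer genes, Gad1 ranged 25.5-fold and Slc17a6 58.5-fold, but Thy1 only 1.70-fold and Sncg 2.11-fold. The part of retinal tissue in the samples was not tested. In bulk tissue, fewer cells of a type and less RNA per cell cannot be told apart.

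The right eye of animal 68 and the left eye of animal 65 stood apart from the other 8 libraries. The right eye of animal 68 had the highest level of 9 of the 10 members, all except Opn1sw, and the left eye of animal 65 had the next highest level of 7 of them. The summed level of 9 rod genes was also highest in these libraries, at 1757 CPM in the right eye of animal 68 and 842 CPM in the left eye of animal 65, against 125.7 to 547 CPM in the others. At the low end, the right eye of animal 61 had the lowest level of 6 members and the right eye of animal 66 that of 2.

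Cone transcripts were scarce but measurable in every library. The 10 members together reached 12.5, 23.7, 18.4, 11.8 and 51.3 CPM in the right eyes of animals 61, 64, 65, 66 and 68, against 14.5, 17.6, 31.1, 19.5 and 15.8 CPM in their left eyes. The right and left ranges overlapped, and the highest library exceeded the lowest 4.35-fold. Levels of different genes were compared per kilobase of annotated exon. Gngt2, Gnat2, Opn1sw and Pde6c led, with medians over the 10 libraries of 1.20, 1.12, 1.11 and 1.01 CPM per kilobase, and neighbours in this order changed places between libraries, with Gngt2 above Gnat2 in 4 of 10 and Opn1sw above Pde6c in 4 of 10. Gnb3 followed with a median of 0.760 CPM per kilobase, then Arr3 at 0.432 and Opn1mw at 0.431 CPM per kilobase, and these last changed places in 5 of 10 libraries. Cngb3 had a median of 0.188 CPM per kilobase and was below Opn1mw in 10 of 10 libraries. Pde6h and Cnga3 were lowest, with medians of 0.107 and 0.0409 CPM per kilobase. The divisor for Pde6h, 7.846 kilobases of exon over all its annotated transcripts, was the longest of the members. In CPM without this division its median of 0.841 was above that of Opn1mw at 0.674. Which of its transcripts were present was not tested, so its place in the order depends on the annotation.

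The opsins head the pathway, and their promoters are shown because the opsin genes differed in their pattern over the libraries. Each window runs from 250 bases before to 50 bases after the start of the RefSeq transcript (GRCm38.p6), 5′ to 3′, and windows were found for 6 of the 10 members. Arr3 and Gnat2 are shown beside the opsins as a member that varied widely and one that varied little. Capitals mark 4 motifs found on either strand. TAATCC is the core bound by the photoreceptor factors CRX and OTX2, TAATCT differs from it in the last base, AGGTCA is the hexamer bound by nuclear receptors, and TATAAA is the TATA box.
Opn1sw promoter, chr6:29380464-29380763, minus strand: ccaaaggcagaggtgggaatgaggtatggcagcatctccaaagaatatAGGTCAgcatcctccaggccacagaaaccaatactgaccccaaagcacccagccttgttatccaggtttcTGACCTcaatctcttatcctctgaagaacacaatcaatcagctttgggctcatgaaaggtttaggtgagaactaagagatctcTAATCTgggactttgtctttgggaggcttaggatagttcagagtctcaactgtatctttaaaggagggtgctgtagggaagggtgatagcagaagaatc
Opn1mw promoter, chrX:74127216-74127515, plus strand: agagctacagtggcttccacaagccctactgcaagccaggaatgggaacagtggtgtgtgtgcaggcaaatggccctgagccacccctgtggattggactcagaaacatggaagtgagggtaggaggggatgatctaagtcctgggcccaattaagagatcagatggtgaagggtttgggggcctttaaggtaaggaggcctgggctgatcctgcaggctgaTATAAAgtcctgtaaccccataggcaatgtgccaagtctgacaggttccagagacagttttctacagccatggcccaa
Arr3 promoter, chrX:100605247-100605546, plus strand: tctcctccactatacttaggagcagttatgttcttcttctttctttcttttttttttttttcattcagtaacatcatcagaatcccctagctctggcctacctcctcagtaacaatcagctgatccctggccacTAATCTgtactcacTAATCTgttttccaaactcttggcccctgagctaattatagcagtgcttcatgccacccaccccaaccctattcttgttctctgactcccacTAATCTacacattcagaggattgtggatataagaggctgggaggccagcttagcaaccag
Gnat2 promoter, chr3:108092816-108093115, plus strand: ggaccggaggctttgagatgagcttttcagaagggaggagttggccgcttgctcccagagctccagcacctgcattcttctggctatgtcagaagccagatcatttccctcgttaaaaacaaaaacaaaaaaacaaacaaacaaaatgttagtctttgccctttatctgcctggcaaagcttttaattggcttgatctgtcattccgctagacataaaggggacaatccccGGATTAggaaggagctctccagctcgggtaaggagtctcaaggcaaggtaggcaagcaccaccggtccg

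The Opn1sw window held AGGTCA at 202 and 132 bases before the start, on opposite strands, and TAATCT 49 bases before the start. The Opn1mw window held TATAAA 28 bases before the start and none of the other motifs. Arr3 had 3 copies of TAATCT, at 116, 102 and 10 bases before the start, and Gnat2 had 1 TAATCC on the opposite strand, 19 bases before the start. No marked motif overlapped another. Of 32851 RefSeq windows of the same length, 7.06% held TAATCC, 8.19% TAATCT, 16.3% AGGTCA and 13.6% TATAAA. A match describes these letters and not a bound site.

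Opn1sw, the short-wave opsin that in mice absorbs in the ultraviolet, lies on chromosome 6 (29376671 to 29388468, minus strand, GRCm38). It had 0.812, 5.40, 2.91, 1.36 and 2.82 CPM in the right eyes of animals 61, 64, 65, 66 and 68, against 1.51, 3.86, 1.98, 5.07 and 2.88 CPM in their left eyes. The highest values were in both eyes of animal 64 and the left eye of animal 66, and the lowest was in the right eye of animal 61. Opn1mw, the middle-wave opsin, lies on chromosome X (74127464 to 74150760, plus strand). It had 0.479, 1.12, 0.766, 0.365 and 6.69 CPM in the right eyes, against 0.919, 0.581, 3.18, 0.404 and 0.520 CPM in the left eyes in the same order of animals. The right eye of animal 68 and the left eye of animal 65 were far above the rest, and the other 8 libraries lay between 0.365 and 1.12 CPM. Opn1sw had no such peak, since those libraries ranked sixth and seventh of 10 for it.

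The balance of the opsins therefore differed strongly between libraries. Opn1sw made up 62.9%, 82.9%, 79.2%, 78.8% and 29.7% of the reads of both opsins in the right eyes of animals 61, 64, 65, 66 and 68, against 62.2%, 86.9%, 38.4%, 92.6% and 84.7% in their left eyes. Implied reads ranged from 61 to 392 per library for Opn1sw and from 27 to 631 for Opn1mw. The 95% Wilson interval was 26.8% to 32.7% in the right eye of animal 68 and 34.0% to 43.1% in the left eye of animal 65, and the lowest bound among the other 8 libraries was 53.0%. These intervals cover counting error only. The fellow eyes were far apart in those same animals, with 29.7% in the right and 84.7% in the left eye of animal 68, and 79.2% in the right and 38.4% in the left eye of animal 65. In animal 61 the eyes lay close together, at 62.9% in the right and 62.2% in the left eye. As a ratio of CPM, Opn1sw to Opn1mw ran from 0.422 to 12.6, a 29.8-fold range. The log2 ratio averaged 1.12 ± 1.44 in right eyes and 1.78 ± 1.74 in left eyes (SD, n = 5 each), the right minus left difference was -0.66 with an SD of 2.33 between animals, and 2 of 5 animals had the higher ratio in the right eye. Without both eyes of animal 68 the difference was 0.11. No p is given for this ratio.

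**Figure D1:**
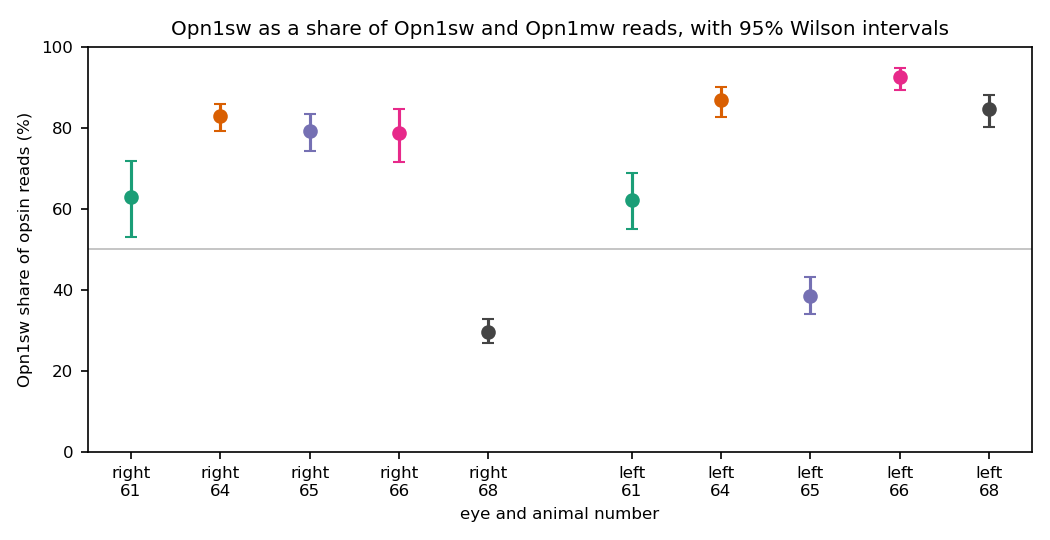
Opn1sw as a percentage of Opn1sw and Opn1mw implied reads (vertical axis) in each right and left eye (horizontal axis, animal number under the eye), with points for libraries and bars for 95% Wilson intervals. The right eye of animal 68 at 29.7% and the left eye of animal 65 at 38.4% lie below 50%, and the other 8 libraries lie between 62.2% and 92.6%.

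Genes that mark the dorsal or ventral retina differed in how the right eye of animal 68 and the left eye of animal 65 stood to the others. Tbx5, a dorsal transcription factor, had 1.96 CPM in the left eye of animal 65, the highest of the 10 libraries, but 0.637 CPM in the right eye of animal 68, and 0.637 to 1.09 CPM in the others. Vax2, a ventral transcription factor, had 0.350 CPM in the right eye of animal 68 and 0.478 CPM in the left eye of animal 65, inside the range of 0.122 to 0.610 CPM of the others. Over both lists, 4 genes were lowest in exactly those libraries. Of the ventral list, Ephb3, an ephrin receptor, had 14.2 CPM in the right eye of animal 68 and 17.0 CPM in the left eye of animal 65, against 18.1 to 27.4 CPM in the others, and Cyp1b1, a cytochrome P450, had 19.6 CPM and 23.1 CPM, against 25.5 to 35.9 CPM. Of the dorsal list, Efnb1, an ephrin, had 9.29 CPM and 10.2 CPM in the same libraries, against 11.6 to 15.4 CPM, and Cyp26a1, which degrades retinoic acid, had 4.80 CPM and 3.86 CPM, against 6.18 to 11.2 CPM. These 4 were named after their values were seen, and their relation to the opsin share was not tested. The rest of both lists did not have this pattern. The dorsal Efnb2 was highest of the 10 libraries in the left eye of animal 65 (21.3 CPM) and lowest in the right eye of animal 68 (12.4 CPM). The ventral Aldh1a3 was lowest in the right eye of animal 65 (4.68 CPM). Of 7 dorsal genes 6 were abundant enough to test between right and left eyes with limma, a linear model over all genes described further on, and of 7 ventral genes 5 were. None of these 11 passed an adjusted p of 0.05, and 1, the retinoic acid enzyme Aldh1a3, had an unadjusted p under 0.05, against 2.79% of all genes. In the test between animals, also described further on, 5 of the 6 dorsal and 2 of the 5 ventral genes had an unadjusted p under 0.05, against 7.22% of all genes, and 0 passed an adjusted p of 0.05. Several of these genes stood far above the cone genes, among them Aldh1a1 at a mean of 66.6 CPM and Bmp4 at 25.4 CPM, and the tissue layer that gave this RNA cannot be told apart.

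Cone transducin is built from the alpha subunit Gnat2, the beta subunit Gnb3 and the gamma subunit Gngt2. Gnat2 (chromosome 3, 108092789 to 108101432, plus strand) had 3.25, 4.01, 4.40, 3.12 and 7.14 CPM in the right eyes of animals 61, 64, 65, 66 and 68, against 2.99, 2.93, 4.73, 3.48 and 3.20 CPM in their left eyes. The right eye of animal 68 was highest, and the whole range was only 2.43-fold. Gnb3 (chromosome 6, 124834240 to 124840275, minus strand), which ON bipolar cells of the retina also use, had 0.626, 3.11, 1.86, 1.14 and 9.09 CPM in right eyes, against 1.20, 1.99, 4.92, 2.41 and 2.01 CPM in left eyes. Its range was 14.5-fold, and its highest and lowest libraries were the right eyes of animals 68 and 61. Grm6, a glutamate receptor that marks ON bipolar cells, was also highest there, at 1.82 CPM in the right eye of animal 68 and 1.42 CPM in the left eye of animal 65, against 0.0343 to 0.429 CPM in the others, and the part of bipolar cells in the Gnb3 level was not tested. Gngt2 (chromosome 11, 95837216 to 95845734, plus strand) had 2.40, 2.41, 1.77, 1.68 and 4.25 CPM in right eyes, against 2.83, 2.17, 1.97, 2.32 and 1.94 CPM in left eyes. Outside the right eye of animal 68 its values stayed between 1.68 and 2.83 CPM. The subunits of 1 protein complex thus covered different ranges in the same libraries.

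The cone phosphodiesterase consists of the catalytic subunit Pde6c and the inhibitory subunit Pde6h. Pde6c (chromosome 19, 38132781 to 38183958, plus strand) had 3.59, 3.09, 4.11, 2.44 and 6.73 CPM in the right eyes, against 2.34, 2.55, 4.92, 2.75 and 2.93 CPM in the left eyes, a 2.88-fold range. Pde6h (chromosome 6, 136923832 to 136968865, plus strand) had 0.266, 0.923, 0.922, 0.297 and 3.56 CPM in the right eyes, against 0.649, 0.761, 2.17, 1.20 and 0.414 CPM in the left eyes, a 13.4-fold range. Both were highest in the right eye of animal 68 and next highest in the left eye of animal 65, and the distance of those libraries from the others was larger for Pde6h.

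The cone channel has the subunits Cnga3, which forms the pore, and Cngb3, which modulates it. Cnga3 (chromosome 1, 37214434 to 37263384, plus strand) was the scarcest member. It had 0.331, 0.144, 0.0457 and 1.07 CPM in the right eyes of animals 64, 65, 66 and 68 and was listed at 0 in that of animal 61, against 0.108, 0.180, 0.525, 0.135 and 0.244 CPM in the left eyes. Its highest value rests on 101 implied reads and the median on 12.5, so that only the high values are well measured. Cngb3 (chromosome 4, 19280850 to 19510623, plus strand) had 0.599, 1.38, 0.850, 0.708 and 2.06 CPM in right eyes, against 0.811, 1.05, 1.09, 0.822 and 0.924 CPM in left eyes. Right and left eyes overlapped for both subunits. Arr3 (chromosome X, 100605497 to 100618493, plus strand), cone arrestin, which quenches the activated opsin, had 0.466, 1.94, 0.706, 0.640 and 7.90 CPM in right eyes, against 1.11, 1.56, 5.64, 0.927 and 0.733 CPM in left eyes. Its 17.0-fold range was close to the 18.3-fold range of Opn1mw, with the same 2 libraries on top.

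**Figure D2:**
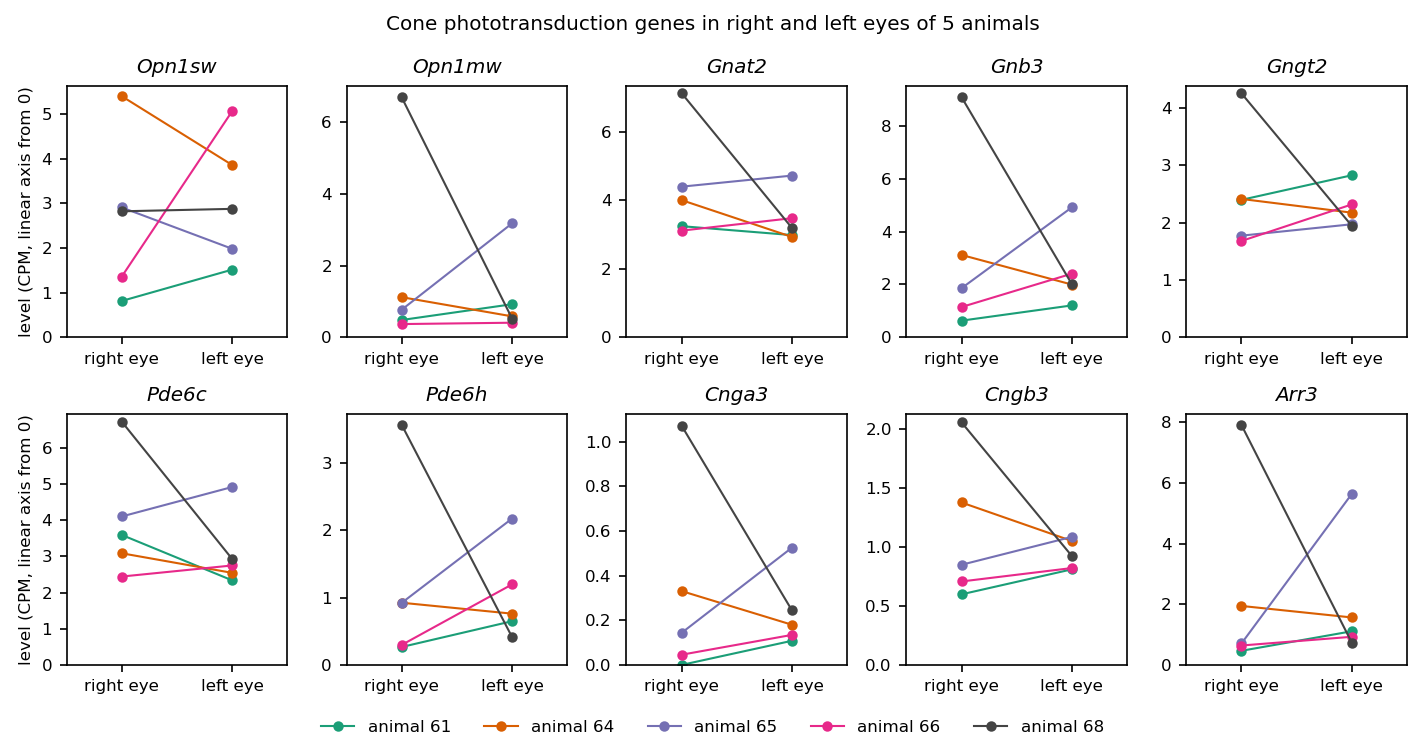
Level of each cone phototransduction gene in CPM (vertical axis, linear, a scale per gene) in the right and left eye (horizontal axis) of each animal, with a line joining the eyes of 1 animal. The line of animal 68 ends highest in the right eye in every panel except Opn1sw, where the right eye of animal 64 is highest at 5.40 CPM.

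Rod genes of the same libraries were used as a yardstick, a list that was also chosen with earlier results of these data known. A set of 9 rod genes of the same cascade, among them Sag, Gnat1, Pde6b and Cngb1, summed to 125.7, 547, 281, 137 and 1757 CPM in the right eyes of animals 61, 64, 65, 66 and 68, against 199.6, 386, 842, 361 and 221 CPM in their left eyes. The range was 14.0-fold, wider than that of the summed cone genes. Per 100 CPM of the rod sum, the cone sum was 9.93, 4.34, 6.55, 8.60 and 2.92 CPM in right eyes, against 7.25, 4.57, 3.70, 5.40 and 7.13 CPM in left eyes. Sorted by the rod sum, which is also the denominator, this ratio was lower at every step up, from 9.93 CPM at the lowest rod sum to 2.92 CPM at the highest. The log2 ratio of the sums differed by 0.12 between right and left eyes, with an SD of 0.857 between animals, and 3 of 5 animals had the higher ratio in the right eye. It differed by 0.47 without animal 68.

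The members were grouped by whether the ratio to the rod sum spread less than the level, a grouping made after the values were seen. The log2 rod sum had an SD of 1.19. A gene with an SD far below that has the wider ratio even if it rises and falls with the rods. Gnat2, Pde6c, Gngt2 and Cngb3 are such genes, so the grouping does not say whether they followed the rods. For Gnb3 the SD over the 10 libraries was 1.10 for the log2 level and 0.29 for the log2 ratio to the rod sum. The SDs were 1.19 for the level and 0.36 for the ratio of Pde6h, 1.36 and 0.45 for Arr3, and 1.36 and 0.65 for Opn1mw. For the other 5 members with a value above 0 in all libraries the ratio spread more than the level. The SD was 0.40 for the level and 0.87 for the ratio of Gnat2, 0.49 and 0.89 for Pde6c, 0.39 and 1.01 for Gngt2, 0.51 and 0.74 for Cngb3, and 0.87 and 1.05 for Opn1sw. Over all 15411 genes tested with a value above 0 in all libraries, 1.69% had a narrower ratio than level, against 4 of these 9 members and 9 of 9 rod genes, each rod gene set against the sum of the others. The median SD of the log2 level was 0.87 for the 9 members and 0.16 for all these genes. Most of these genes were thus too steady to have a narrower ratio, whatever their pattern. The share of 1.69% therefore mainly reflects small SDs and is no measure of how many genes followed the rods.

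**Figure D3:**
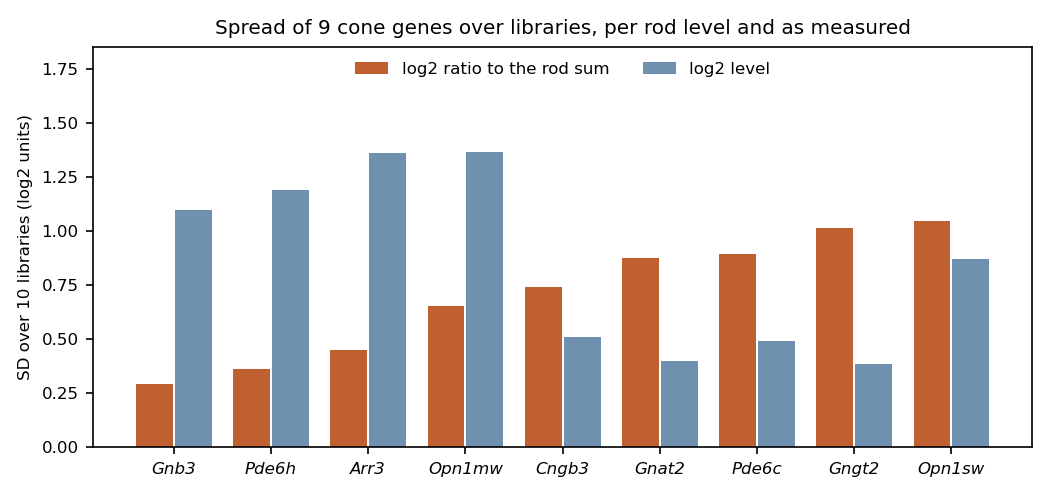
SD over the 10 libraries in log2 units (vertical axis) of the ratio to the summed level of 9 rod genes and of the level itself, for 9 cone genes (horizontal axis). Bars for the ratio are the shorter ones for Gnb3, Pde6h, Arr3 and Opn1mw, down to 0.29 for Gnb3, and the taller ones for the other 5 genes.

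Opn1sw followed the rod sum over part of its range only. Per 100 CPM of the rod sum it was 0.646, 0.988, 1.03 and 0.991 CPM in the right eyes of animals 61, 64, 65 and 66, and 0.758, 1.00, 1.40 and 1.30 CPM in the left eyes of animals 61, 64, 66 and 68. It was 0.161 CPM in the right eye of animal 68 and 0.236 CPM in the left eye of animal 65, below all the others. Opn1mw was 0.381 CPM per 100 CPM of the rod sum in the right eye of animal 68 and 0.377 CPM in the left eye of animal 65, within the 0.112 to 0.460 CPM of the other 8 libraries. The libraries with the most rod transcript, which is also the denominator, were therefore low in the short-wave opsin per rod transcript and not in the middle-wave opsin. Opn1sw was not alone in this. Gnat2 (0.406 CPM in the right eye of animal 68, 0.562 CPM in the left eye of animal 65), Gngt2 (0.242 and 0.234 CPM) and Cngb3 (0.117 and 0.129 CPM) were also lowest there. Pde6c was lowest in the right eye of animal 68, at 0.383 CPM. Arr3, Gnb3, Pde6h and Cnga3 were lowest in other libraries.

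**Figure D4:**
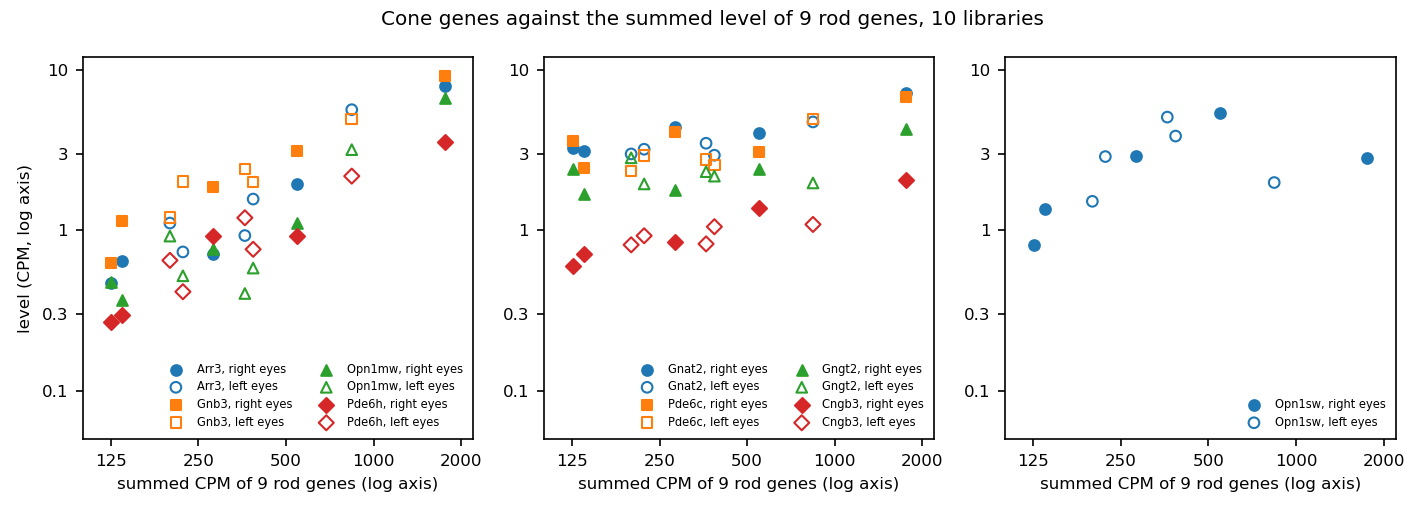
Level of cone genes in CPM (vertical axis, log) against the summed CPM of 9 rod genes (horizontal axis, log), with filled points for right eyes and open points for left eyes. Arr3, Gnb3, Opn1mw and Pde6h (left panel) are highest where the rod sum is 842 and 1757 CPM, Gnat2, Pde6c, Gngt2 and Cngb3 (middle panel) cover a narrower range, and Opn1sw (right panel) peaks at 5.40 CPM where the rod sum is 547 CPM.

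Within animals, the eye with more rod transcript was mostly the eye with more cone transcript. The rod sum was higher in the right eye of animals 64 and 68 and in the left eye of animals 61, 65 and 66. The difference of each member, taken as log2(CPM + 0.230) with a pseudocount in CPM, had the same sign as the rod difference in 5 of 5 animals for 7 of the 10 members, in 4 of 5 for Gnat2 and Pde6c and in 3 of 5 for Opn1sw. Over all 15414 genes tested, 4.86% had the same sign in 5 of 5 animals. In animal 68 the level in the right eye over that in the left differed by 3.69 for Opn1mw, 3.43 for Arr3 and 3.11 for Pde6h on the log2 scale without a pseudocount, against 2.18 for Gnb3, 1.13 to 1.20 for Gnat2, Gngt2, Pde6c and Cngb3, and -0.03 for Opn1sw. The rod sum differed by 2.99 in the same animal. In animal 65 the right minus left difference was -3.00 for Arr3, -2.05 for Opn1mw and -1.58 for the rod sum, against 0.55 for Opn1sw. The fellow eyes of these animals thus differed in opposite directions for the opsins in animal 65 and hardly at all for Opn1sw in animal 68.

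The right eyes were compared with the left eyes of the same animals in a linear model over all genes (limma, with animal and eye side as terms, on log2 values with the pseudocount of 0.230 CPM). Side is the only grouping of eyes in the labels, and with the lens side unknown this is no test of the lens. Of the 9 members with a mean of at least 1 CPM, which excludes Cnga3, 0 passed an adjusted p of 0.05, as did 0% of the 15414 genes tested. At an unadjusted p under 0.05 there were 0 of 9 members, against 2.79% of all genes. The estimate was higher in the right eye for 5 members and lower for 4, a split that became 8 and 1 after quantile normalization and without animal 61, 65 or 66, and 2 and 7 without animal 68. The median member difference was 0.08, against -0.01 for all genes. The right and left ranges overlapped for 10 of 10 members, and 0.214% of all genes tested had ranges that did not.

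Pde6c had the smallest p of the members in this comparison. It averaged 3.99 ± 1.65 CPM in right eyes and 3.10 ± 1.04 CPM in left eyes (SD, n = 5 each), a log2 difference of 0.31 ± 0.20 (SE, adjusted p = 0.9998 in limma), higher in the right eye of 3 of 5 animals. Gnat2 averaged 4.38 ± 1.63 CPM in right eyes and 3.47 ± 0.738 CPM in left eyes, a difference of 0.28 ± 0.19 (SE). Neither opsin passed the test. Opn1sw averaged 2.66 ± 1.78 CPM in right eyes and 3.06 ± 1.44 CPM in left eyes, a difference of -0.31 ± 0.33 (SE). Opn1mw averaged 1.88 ± 2.70 CPM in right eyes and 1.12 ± 1.17 CPM in left eyes, a difference of 0.28 ± 0.64 (SE). The signs rest on single animals, since the differences were 0.05 for Opn1sw and 0.37 for Opn1mw without animal 66, and -0.38 and -0.46 without animal 68.

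The precision of the test differed between the members. The 95% interval for Gnat2 ran from -0.16 to 0.72 on the log2 scale and that for Arr3 from -1.78 to 1.52, so that a 2-fold difference lies outside the first and inside the second. The standard error was 0.19 to 0.70 over the members, with a median of 0.33, against a median of 0.09 over all genes. With the mean level of 11 rod markers added as a covariate, the standard error was 0.11 for Gnb3 in place of 0.47, 0.17 for Pde6h in place of 0.55, 0.27 for Arr3 in place of 0.70 and 0.23 for Opn1mw in place of 0.64, but 0.32 for Opn1sw in place of 0.33. The differences themselves then were -0.05 for Gnb3, -0.09 for Pde6h, -0.11 for Arr3, 0.30 for Opn1mw and -0.30 for Opn1sw, the smallest adjusted p of a member was 0.925 in limma, and 2 of 9 members, Gnat2 and Pde6c, had an unadjusted p under 0.05, against 4.53% of all genes in that fit. Without both eyes of animal 68, the difference was -0.93 for Arr3, -0.78 for Pde6h, -0.60 for Gnb3 and -0.46 for Opn1mw, and without those of animal 65 it was 0.50, 0.13, 0.24 and 0.79. Which eye had more of these members therefore rests on single animals.

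**Figure D5:**
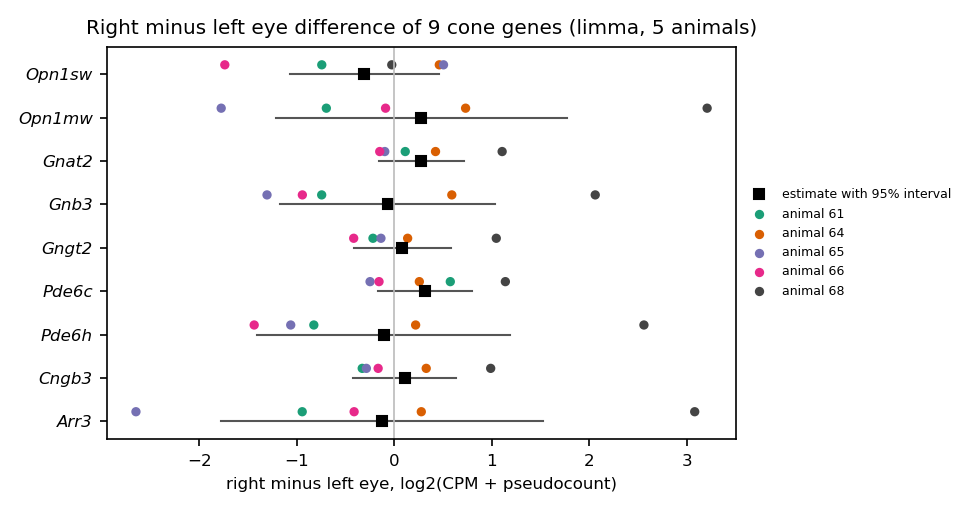
Right minus left eye difference in log2(CPM + 0.230) (horizontal axis) of 9 cone genes (vertical axis), with squares for the limma estimate, lines for its 95% interval and dots for the 5 animals. Every line crosses 0, and animal 68 lies at 3.08 for Arr3 and 3.21 for Opn1mw but at -0.03 for Opn1sw.

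Whether the eyes of an animal were more alike than eyes of different animals was asked with limma's F-test of the animal terms in the same fit. Of the 9 members, 0 passed an adjusted p of 0.05, against 0.0843% of all 15414 genes (13 genes), and 0 had an unadjusted p under 0.05, against 7.22% of all genes. Opn1sw came nearest, with an unadjusted p of 0.0788 (adjusted p = 0.712 in limma), and Arr3 had an unadjusted p of 0.553 (adjusted p = 0.853 in limma). These counts rest on single libraries. Without the left eye of animal 68, 8 of 9 members, all except Opn1sw, had an unadjusted p under 0.05, against 9.85% of all genes, and the smallest adjusted p was 0.291 in limma, for Gnb3. Without animal 66, 1 of 9 had one, Opn1sw, at 0.00536 (adjusted p = 0.431 in limma), against 8.49% of all genes. For Opn1sw, both eyes of animal 61 (0.812 CPM right, 1.51 CPM left) were below both eyes of animal 64 (5.40 CPM right, 3.86 CPM left). For Arr3 the eyes of animal 68 (7.90 CPM right, 0.733 CPM left) were near opposite ends of the range.

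The cone genes other than the opsins were also set against the rod gene of the same step. Arr3 was at 2.22% to 6.93% of the level of Sag, rod arrestin, with a median of 3.46%. Pde6h was at 5.49% to 13.8% of Pde6g, the rod inhibitory subunit, and Cngb3 at 6.65% to 16.4% of Cngb1, the rod channel subunit. These ranges are in CPM, without correction for length, and describe how each ratio varied between libraries. They spanned 3.12-fold for Arr3, 2.50-fold for Pde6h and 2.46-fold for Cngb3, and other pairs spanned more. Gnat2 was at 2.45% of Gnat1, rod transducin alpha, in the right eye of animal 68 and at 13.7% in the right eye of animal 61. Gngt2 was at 11.4% to 81.4% of Gngt1, and Pde6c at 5.93% to 37.5% of Pde6a, with the same libraries at the ends. Gnb1, the beta subunit that rods use, is expressed in many tissues and stood at 110.9 to 229.8 CPM, a 2.07-fold range. Gnb3 was at 0.548% to 3.96% of Gnb1, a 7.22-fold range, and Cnga3 at 0% to 7.42% of its rod counterpart Cnga1.

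Other photoreceptor genes, of which only some are shared by cones and rods, also varied to different degrees. Over all genes tested, 2.79% had an unadjusted p under 0.05 between right and left eyes in limma. Of those above 0 in all libraries, 1.69% had a ratio to the rod sum narrower than the level, a share that mainly reflects small SDs of the level. These shares stand beside the counts of each list below. Of 19 genes for regulation and feedback, 19 were tested between right and left eyes and 0 had an adjusted p under 0.05 in limma, while 2 stood at an unadjusted p under 0.05 (Slc24a1 and Rgs9, with estimates of 0.25 and 0.23 on the log2 scale). For 13 of the 19 the ratio to the rod sum was narrower than the level, among them Rcvrn (recoverin, SD 1.17 for the level and 0.12 for the ratio), Grk1 (a photoreceptor kinase, 1.18 and 0.18) and Pdc (phosducin, 1.16 and 0.16). Others were abundant and steady, such as Slc24a1, a sodium, calcium and potassium exchanger of rods (mean 112.7 CPM, SD of the log2 level 0.22), and Rgs9, which speeds the shut-off of transducin (55.4 CPM, 0.20). Among 12 photoreceptor transcription factors, 11 were tested and 0 passed in limma, with 0 at an unadjusted p under 0.05. For 5 of the 11 (Crx, Nrl, Nr2e3, Neurod1 and Esrrb) the ratio to the rod sum was narrower than the level, with SDs of 0.14 for the ratio and 1.13 for the level of Crx, and 0.14 and 1.17 for Nrl. Thrb, the thyroid hormone receptor needed for the middle-wave opsin, was steady at a mean of 25.7 CPM with an SD of 0.13, and Rxrg, a retinoid receptor of cones, had a mean of 1.24 CPM with an SD of 0.36. Of 15 other genes listed for cones, 9 were tested and 0 passed in limma, with 0 at an unadjusted p under 0.05, and 1, the complexin Cplx4, had a ratio (0.15) narrower than its level (1.20). Their median difference was -0.02.

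The genes with the most similar profile over the 10 libraries included known photoreceptor genes (Pdc, Rp1, Crx, Gnat1, Rgs9bp) and the neuronal genes Gad1 and Syp. Against the mean centred log2 level of the 9 tested members, the highest Pearson r among 13209 other genes were those of Pdc (0.997), Rp1 (0.995), Pla2r1 (0.995), Kcnj14 (0.994), Crx (0.994), Gnat1 (0.994), Gad1 (0.994), Syp (0.994), Rgs9bp (0.994) and Fstl5 (0.992), and all 9 rod genes were among the first 100. Among the members themselves r to that mean was 0.97 for Gnb3, 0.96 for Pde6h, 0.95 for Arr3, 0.93 for Opn1mw and Cngb3, 0.89 for Gnat2, 0.78 for Pde6c, 0.63 for Gngt2 and 0.42 for Opn1sw, each of them part of the mean. Opn1sw and Opn1mw had an r of 0.08 with each other. Nearest to Opn1mw were Unc13b (0.979), Crmp1 (0.970), March1 (0.968), Nbea (0.967) and Ccdc126 (0.962), and nearest to Opn1sw were Telo2 (0.964), Plxna2 (0.903), Rccd1 (0.902), Mchr1 (0.901) and Stc1 (0.898). These r are measures of likeness over libraries that share animals and in which 2 libraries hold most of the range, and no p is given.

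Some members overlap other genes on the chromosome, and whether counting used the strand is not stated for these values. Opn1sw overlaps the end of Calu by 440 bases on the opposite strand. Calu, a calcium-binding protein of the secretory pathway, stood at 141.2 to 173.5 CPM, and its log2 level had an SD of 0.08 over the libraries, against 0.87 for Opn1sw. Pde6h overlaps Arhgdib by 18068 bases (10.9 to 15.3 CPM, SD 0.15), and Gngt2 overlaps Abi3 by 5261 bases (3.12 to 4.63 CPM, SD 0.16), each on the opposite strand. Calu and Arhgdib varied little where Opn1sw and Pde6h (SD 1.19) varied more, while Gngt2 (SD 0.39) was itself steady. Reads from a gene and its antisense neighbour cannot be told apart here, and the part of such reads in the steady level of Gngt2 was not tested.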

How the data were processed

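Total RNA was sequenced in 10 libraries. Per the labels, a strand-keeping kit with ribosomal RNA depletion was used on 1 μg each. The authors deposited 1 normalized value per gene and library, taken here as CPM because low values step evenly and no column exceeds the CPM total. An offset of 1e-04 in each value was taken off. STAR, Partek and GRCm38 (mm10) are named in the submitters' processing notes, with other settings not given in the sources used here. Starts equalled those of GENCODE M21 for 99.4% of 25737 matched genes and ends (deposited stop minus 1) for 99.3%; exon lengths come from that release. In each library 88.9% to 89.8% of values of 0.5 to 20 steps were whole within 0.05, so no count test was used.

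The test took genes averaging 1 CPM or more as log2(CPM + 0.230) with limma 3.58.1 in R 4.3.3 (intensity trend, Benjamini-Hochberg adjustment at 0.05), with animal as a block because fellow eyes come from 1 animal. The scripts were tested on simulated data. No 2 libraries were duplicates (45 pairs, chi-square over its degrees of freedom 11.4 to 60.2). In the side test, p-values set the mean right minus left difference against the spread of that difference between these 5 animals. In the F-test, they set differences between animals against the spread of fellow eyes left after the side term. Both use variances moderated over all genes tested. The members and lists were chosen with earlier results of these data known. All 10 members are named; the genes most like them were taken by Pearson r, predicted loci left out. Some items are not reported here. Alternatives covered block, pseudocount, filter, scaling, weights, moderation, a rod covariate and each animal left out; leaving out animals 65 and 68 together was added after seeing the data. Plots came from matplotlib 3.10.9 (Python 3.11.15).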

Additional observations from a re-analysis of the deposited data

Results flagged for a closer look

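Within the 5 right eyes and within the 5 left eyes, the level of each member, the summed cone and rod levels, the share of Opn1sw and the cone to rod ratio were checked for a library far from the other 4 (Dixon's test, critical value 0.71). Chance flags about 1 in 20 independent groups. The groups here share libraries and hold genes that vary together, so that share is no yardstick for their count. Of 28 groups 9 were flagged, 5 in the right eye of animal 68 and 4 in the left eye of animal 65. In the right eye of animal 68 these were Opn1mw at 6.69 CPM (next highest right eye 1.12 CPM), Arr3 at 7.90 CPM (1.94 CPM), Pde6h at 3.56 CPM (0.923 CPM), Gngt2 at 4.25 CPM (2.41 CPM) and the sum of 9 rod genes at 1757 CPM (547 CPM). In the left eye of animal 65 they were Opn1mw at 3.18 CPM (next highest left eye 0.919 CPM), Arr3 at 5.64 CPM (1.56 CPM), Pde6c at 4.92 CPM (2.93 CPM) and the sum of 9 rod genes at 842 CPM (386 CPM). Opn1sw was not flagged in either group. The rod sum moves with these members, and both the ratio to it and a fit with the rod level as a covariate are given above.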

How the results depend on the processing

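No gene passed between right and left eyes in any of 17 alternatives, with unadjusted p under 0.05 for 266 to 861 genes. The fit with no replicate block gave 0 genes (434 at an unadjusted p under 0.05), and the block changed no other call. For the 9 tested members, 0 of 144 alternative values passed (smallest adjusted p = 0.925 in limma), and 7 of 9 turned sign in at least 1 alternative. The count of genes that differ between animals was 13, and was 25 with no eye side term, 20 with array weights and 5 without animals 65 and 68. Leaving out 1 animal or 1 library gave 5 to 11 genes, within 1.5 times of 13 only without animal 65 (10), animal 66 (11) or the left eye of animal 65 (10). The cause was not tested. No member passed in any of these 24 alternatives. Leaving out 1 library left its animal with a single eye, and such a fit cannot say whether the eyes of that animal were alike. With 1 animal left out, the right minus left log2 difference ran from -1.47 to 0.11 for the Opn1sw to Opn1mw ratio and from -0.06 to 0.47 for the cone to rod ratio. No member reached the filter of 5 CPM, so none has a value there. Depth limits Cnga3 most, with a median of 12.5 implied reads.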
